A study of Hordeum vulgare with 18 samples.

Results

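The flag leaves of 2 barley (Hordeum vulgare) lines were compared at 21 days post anthesis (d), late in the life of the leaf. The comparison uses 6 of the 18 libraries of the study, chosen by their titles: 3 libraries of line 10_11 at 21 d (replicates A, B and C) and 3 of the cultivar Karl at 21 d (replicates A, B and C). The other 12 libraries, 3 of each line at 7 d and at 14 d, entered the fit and show whether a difference seen at 21 d was already there earlier. Of the 13626 genes in the table, 9973 passed a filter on low counts and all of these were tested. From the literature, 10_11 and Karl are near-isogenic, alike in most of the genome, and differ at a grain protein content locus on chromosome 6. The labels give no transgene, mutation or stress treatment for either line. All plants grew in the same glasshouse at about 22 °C by day and 18 °C by night with a 16 h photoperiod, were fertilised until anthesis, and received 16 mM KNO3 over the same period. Each sample pooled at least 10 flag leaves, so a value is an average over leaves. In such bulk tissue, fewer cells of a type and less RNA per cell cannot be told apart.

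The flag leaf is the last leaf a cereal makes and a main source of sugar for the grain. As it senesces, chloroplasts are taken apart, leaf protein is degraded, and the released amino acids are exported to the filling grain. Lines that differ in grain protein can differ in when and how fast this happens, and the comparison at 21 d asks which transcripts stood apart between the lines at that age.

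Counts came from MARS-seq, which reads short tags at transcript 3′ ends. Levels are given as CPM, a gene's counts relative to the TMM-scaled total of its library, and each gene is compared between libraries. The 21 d libraries held 1058777 to 1384895 counts in 10_11 and 1351123 to 2616825 counts in Karl. Genes carry barley identifiers, in which the digit after HORVU is the chromosome. None of the identifiers could be paired with a name in the reference gene table, so no gene function is given, and leaf marker genes and lists by function could not be checked. The labels call the 3 samples of a group independent and do not say whether they came from separate pots, so a p-value speaks for the spread among these pools of leaves and no more.

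Libraries of a group differed among themselves at 21 d. The Pearson r of log2 CPM across genes, which are not independent replicates, was 0.868 to 0.944 between 10_11 libraries and 0.930 to 0.959 between Karl libraries. The lowest value was that between 10_11 replicates A and B. In a principal component analysis of the 6 libraries, the first component held 42.6% of the variance and did not separate the lines: 10_11 replicates A, B and C had loadings of 0.67, -0.41 and 0.37, and Karl replicates A, B and C had -0.28, -0.41 and 0.05. The second component held 26.6% and did, with 0.19, 0.75 and 0.08 in 10_11 and -0.23, -0.28 and -0.51 in Karl.

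1 library of an earlier day goes against its label at most of the genes picked below and touches the comparison through the shared estimate of spread. Of 5 genes with 0 counts in 10_11 at 21 d and at least 3 counts in every Karl library of that day, 4 had all of their 10_11 counts at 14 d in just 1 library, that labelled replicate C, where they had 14, 18, 8 and 186 counts. Conversely, 8 genes had 0 counts in Karl at 21 d and at least 3 in every 10_11 library of that day, and they had 0 to 9 counts in that same 14 d library, against 50 to 972 counts summed over the 3 libraries of 10_11 at 14 d. No 14 d library was used to pick these 13 genes. The label held for other values. HORVU2Hr1G007170, the remaining 1 of the 5, had 0 counts in that 14 d library, where the Karl libraries of 14 d held 27. HORVU2Hr1G012710, which is not among the 13, had 35.2, 33.5 and 34.2 CPM in 10_11 replicates A, B and C at 14 d, against 10.2 to 11.7 CPM in Karl. The library labelled 10_11 14 d replicate C is called the doubtful 14 d library here, and results are given with it and, where it matters, without it.

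The lines differed at 21 d in 101 genes, which is 1.01% of those tested, with 69 higher and 32 lower in 10_11 than in Karl (edgeR's quasi-likelihood test, Benjamini-Hochberg adjusted p under 0.05 over all 9973 genes). The higher genes were 0.692% and the lower genes 0.321% of those tested. Of the 101 genes, 90 differed at least 2-fold (0.902% of those tested) and 44 at least 4-fold, and the median size of the log2 fold change was 1.72, against 0.32 over all tested genes. The libraries of the lines did not overlap for 97 of the 101, where 18.6% of all tested genes showed no overlap. At an unadjusted p under 0.05, 15.1% of genes differed. Leaving out the doubtful 14 d library gave 147 calls of 10382 genes tested (1.42%), 96 higher and 51 lower, and 100 of the 101 were again among them. Single libraries of 21 d moved the count as well. It was 46 without Karl replicate A (39 of them among the 101), 13 without Karl replicate B and 43 without Karl replicate C (40 among the 101). Leaving out 10_11 replicate A gave 49 (41 among the 101), and leaving out 10_11 replicate B gave 258 (79 among the 101). Leaving out 10_11 replicate C gave 96, of which 65 were among the 101, and leaving out Karl 14 d replicate C gave 67 (65 among the 101). The excess of higher genes also moved with single libraries: without 10_11 replicate B 133 genes were higher and 125 lower, and without 10_11 replicate C 83 were higher and 13 lower. The 13 genes called without Karl replicate B were all among the 101, and they are the 13 that stayed called whichever of the 18 libraries was left out.

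**Figure D1:**
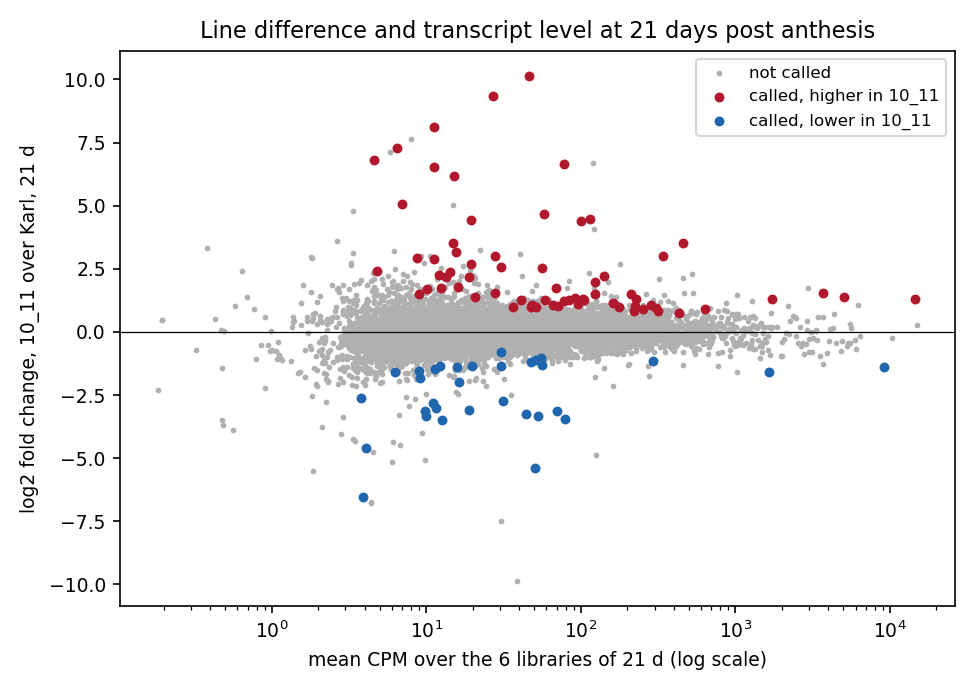
Log2 fold change of 10_11 over Karl at 21 d (vertical axis) against the mean CPM over the 6 libraries (horizontal axis, log scale), with 1 point for each of 9973 genes. Red points are the 69 genes called higher and blue points the 32 called lower in 10_11. Of the called genes that differ at least 4-fold, 40 of 44 have a mean under 100 CPM.

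In the authors' deposited table, which comes from another test on the same counts, 274 genes had an adjusted p under 0.05 for this pair of groups, 2.01% of the 13626 listed, with 193 higher and 81 lower in 10_11. Of the 101 genes, 95 were in the authors' list, which is 94.1% of the 101 and 34.7% of the authors' deposited list. All 95 had the same direction. Each of the 101 had an unadjusted p under 0.05 in the authors' deposited table.

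The abundant called genes were mostly higher in 10_11 and differed by less than the rare ones. The 27 with a mean of at least 100 CPM over the 6 libraries had a median log2 fold change size of 1.30, and 24 of them were higher in 10_11. The 74 below 100 CPM had a median size of 2.32, with 45 higher and 29 lower. In 34 of the 101 genes the lower line had under 5 CPM. At low levels a gene has to differ more to pass the test, so these sizes describe the called genes and not all genes at those levels. Added up, the 69 higher genes held 4.78%, 4.61% and 4.29% of scaled counts in 10_11 replicates A, B and C, against 1.84%, 1.56% and 1.85% in Karl replicates A, B and C. The 32 lower genes held 0.659%, 0.837% and 0.436% in 10_11, against 1.53%, 2.20% and 1.50% in Karl. These sums were set by the choice of genes and carry no test.

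The most abundant called genes lay on chromosome 3. HORVU3Hr1G115990 had 22052, 20812 and 19292 CPM in 10_11 replicates A, B and C, against 8714, 7648 and 8859 CPM in Karl replicates A, B and C. Every 10_11 library was far above every Karl library. The means were 20719 ± 1383 CPM in 10_11 and 8407 ± 661 CPM in Karl (SD, n = 3 each), and the edgeR log2 fold change was 1.30 (SE 0.19, adjusted p = 0.00254). HORVU3Hr1G116060, 2 tested genes further along the chromosome, had 7939.9, 7017 and 6854 CPM in 10_11, against 2725, 2369.8 and 3169 CPM in Karl. The groups again did not overlap, and the log2 fold change was 1.40 (SE 0.22, edgeR adjusted p = 0.00369). Both genes stayed called whichever library was left out, with edgeR adjusted p of 0.000765 to 0.0191 for HORVU3Hr1G115990 and 0.000668 to 0.0376 for HORVU3Hr1G116060. At 7 d HORVU3Hr1G115990 averaged 8378 CPM in 10_11 and 7749 CPM in Karl, and at 14 d 9731 CPM in 10_11 and 7016 CPM in Karl. The line difference at 21 d was larger than that at 7 d at an unadjusted edgeR p of 0.000269, which did not pass adjustment over all genes. HORVU3Hr1G116060 averaged 1816 CPM in 10_11 and 1548 CPM in Karl at 7 d, and 2669 CPM in 10_11 and 1817 CPM in Karl at 14 d. Neighbouring genes may share reads if they are near-identical copies, which was not tested.

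The 2 most abundant genes on the lower side had lower means at each later day in both lines, and the lowest in 10_11 at 21 d. HORVU3Hr1G057090 had 5524, 6466 and 3428 CPM in 10_11, against 12324, 16279 and 11315 CPM in Karl. The libraries did not overlap, and the edgeR log2 fold change was -1.37 (SE 0.24, adjusted p = 0.00881). Its mean was 27725 CPM in 10_11 and 28398 CPM in Karl at 7 d, and 18796 CPM in 10_11 and 17628 CPM in Karl at 14 d, so the lines were close until the last day. Without Karl replicate B its edgeR adjusted p was 0.0617. HORVU5Hr1G082420 had 650.3, 1333 and 501 CPM in 10_11, against 1388, 3950.0 and 2038 CPM in Karl. The highest 10_11 library, replicate B, lay just under the lowest Karl library, replicate A. Its log2 fold change was -1.57 (SE 0.37, edgeR adjusted p = 0.0434), and the call was lost without any 1 of 12 of the 18 libraries, with edgeR adjusted p of 0.0516 to 0.234 in those fits. It had averaged 13901 CPM in 10_11 and 12868 CPM in Karl at 7 d.

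**Figure D2:**
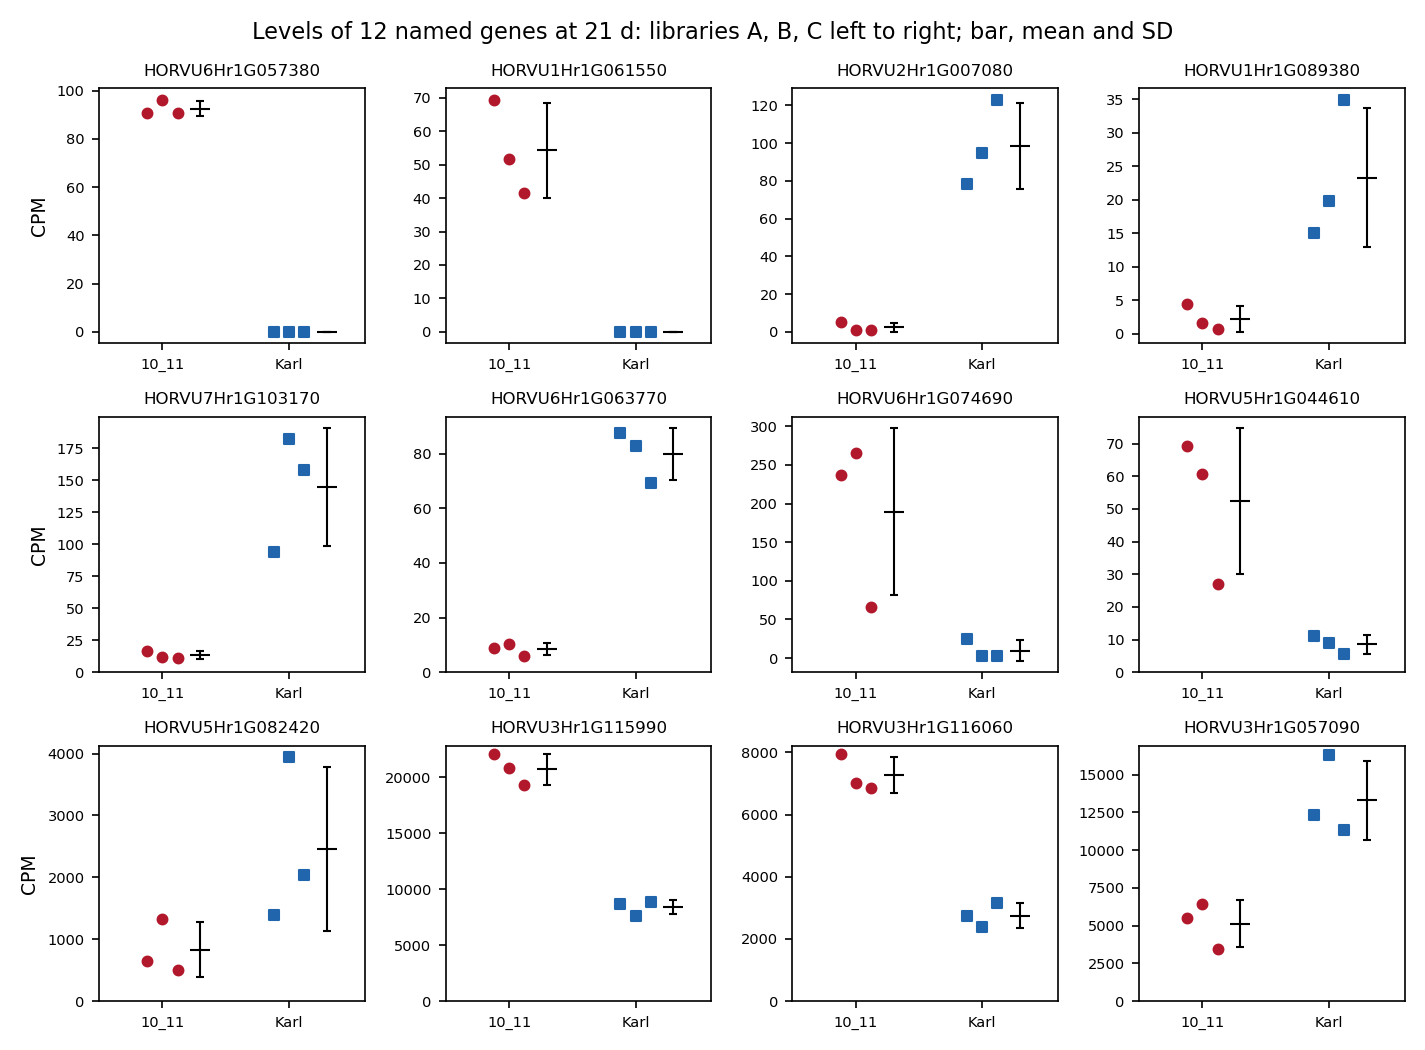
CPM of the 12 genes named by rule, with 10_11 (red circles) left of Karl (blue squares). The 3 points of a line are replicates A, B and C from left to right and the black bar is the mean with its SD (n = 3). In all 12 panels the points of the lines do not overlap, which the rule required of the genes it named. The lines come close for HORVU5Hr1G082420, between 1333 CPM in 10_11 replicate B and 1388 CPM in Karl replicate A.

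The lines at 7 d and 14 d were then used to ask which of the 101 differences were there before 21 d. Those contrasts use no 21 d library, though all libraries enter the fit. At 7 d, 29 of the 101 genes had an unadjusted p under 0.05 with the direction of 21 d and 0 with the opposite one, where 4.35% of all tested genes had such a p in either direction. They were 16 of the 69 higher genes, where 2.04% of tested genes were higher at that p, and 13 of the 32 lower genes, where 2.32% were lower. At 14 d, 42 had it with the direction of 21 d and 1 with the opposite one, where the share among all tested genes was 13.5%. They were 29 of the 69 higher genes, where 5.83% of tested genes were higher, and 13 of the 32 lower genes, where 7.67% were lower. Past the adjusted threshold there were 4 of the 101 at 7 d, where 0.0602% of tested genes were called, and 3 at 14 d, where 0.0501% were called. When the doubtful 14 d library was left out, the calls were 43 at 7 d (0.414%) and 311 at 14 d (3%). Of the 147 genes then called at 21 d, 56 were also called at 14 d, which is 38.1% of the 21 d list and 18.0% of the 14 d list, and 53 of the 56 had the same direction. 30 genes were called on all 3 days, 17 of them on chromosome 6. The 7 d libraries held fewer counts than the others, 353982 to 947762.

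For 25 of the 101 genes the lines differed in the same direction on all 3 days, at an unadjusted p under 0.05 at 7 d and at 14 d. Among all tested genes 0.892% met that condition. When the 14 d library in doubt was left out, 29 of the 101 met it, where 1.29% of tested genes did. Of the 25 genes 16 were higher and 9 lower in 10_11, 22 differed at least 4-fold at 21 d, and the median size of the log2 fold change was 3.46. In 15 of them the lower line had under 5 CPM at 21 d, and in 6 it had no counts. The median level over the 6 libraries was 27.1 CPM.

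Of the 16 genes of this kind that were higher in 10_11, 11 were under 5 CPM in Karl at 21 d. HORVU6Hr1G057380 had 90.5, 96.3 and 90.9 CPM in 10_11, against 0 counts in every Karl library at 21 d, which is at least 190.6-fold higher with a floor of 3 counts over the Karl libraries (edgeR adjusted p = 0.00973). It was present in 10_11 from the start, with 268, 275 and 326 CPM at 7 d, against 0, 3.69 and 1.55 CPM in Karl at 7 d. HORVU1Hr1G061550 had 69.4, 51.8 and 41.5 CPM in 10_11, against 0 counts in every Karl library of that day, and was at least 108-fold higher (edgeR adjusted p = 0.015). At 7 d it had 137, 142 and 148 CPM in 10_11, against 0, 1.85 and 0 CPM in Karl. Neither was called when Karl replicate B was left out (edgeR adjusted p = 0.0697 for HORVU6Hr1G057380 and 0.0886 for HORVU1Hr1G061550). The bounds were then 105-fold for HORVU6Hr1G057380 and 59.6-fold for HORVU1Hr1G061550, as the remaining Karl libraries hold fewer counts. With the doubtful 14 d library left out, the edgeR adjusted p was 2.02e-07 for HORVU6Hr1G057380 and 4.95e-07 for HORVU1Hr1G061550. Both genes are among those that marked this library as doubtful. Leaving it out had to lower their spread, so these p-values add no support.

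3 further genes of chromosome 6 are singled out because their calls held in every leave-one-out fit, a choice made after their values were seen. HORVU6Hr1G028590 had 138, 162 and 165 CPM in 10_11, against 3.75, 1.08 and 0 CPM in Karl (log2 fold change 6.64, SE 0.85, edgeR adjusted p = 0.00133). HORVU6Hr1G034760 had 111, 116 and 105 CPM in 10_11, against 7.51, 3.23 and 2.77 CPM in Karl (4.65, SE 0.61, edgeR adjusted p = 0.00133). HORVU6Hr1G094070 had 159.9, 305 and 193 CPM in 10_11, against 7.51, 11.9 and 9.42 CPM in Karl (4.48, SE 0.60, edgeR adjusted p = 0.00133). Every Karl library lay at 11.9 CPM or below and every 10_11 library at 105 CPM or above. At 7 d HORVU6Hr1G028590 averaged 46.3 CPM in 10_11 and 2.72 CPM in Karl, HORVU6Hr1G034760 averaged 53.1 CPM in 10_11 and 16.9 CPM in Karl, and HORVU6Hr1G094070 averaged 72.4 CPM in 10_11 and 1.13 CPM in Karl.

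Among genes lower in 10_11 on all 3 days, HORVU7Hr1G103170 had 16.7, 12.1 and 10.8 CPM in 10_11, against 93.8, 183 and 158 CPM in Karl at 21 d. Its mean was 13.2 ± 3.08 CPM in 10_11 and 145 ± 45.8 CPM in Karl (SD, n = 3 each). The edgeR log2 fold change was -3.46 (SE 0.52, adjusted p = 0.00297), and the gene was called in every leave-one-out fit. At 7 d it had 24.2, 30.4 and 58.4 CPM in 10_11, against 156, 362 and 285 CPM in Karl. HORVU6Hr1G063770 had 8.79, 10.5 and 6.02 CPM in 10_11, against 87.6, 82.6 and 69.3 CPM in Karl at 21 d (log2 fold change -3.25, SE 0.62, edgeR adjusted p = 0.015). Without Karl replicate B, 10_11 replicate A or 10_11 replicate C the edgeR adjusted p of HORVU6Hr1G063770 was 0.0653, 0.0619 and 0.0572. At 14 d the 10_11 libraries had 4.52, 4.86 and 47.2 CPM, the last in the doubtful one, against 58.6 to 73.0 CPM in Karl. HORVU2Hr1G007080 had 5.27, 0.809 and 1.20 CPM in 10_11, against 78.2, 94.5 and 123 CPM in Karl at 21 d (log2 fold change -5.39, SE 1.10, edgeR adjusted p = 0.0235). That gene missed the condition for the 3 days at 14 d only, where its unadjusted p by edgeR was 0.0568. The 10_11 libraries then had 2.71, 3.24 and 104 CPM, the last again in the doubtful one, against 80.9 to 125 CPM in Karl. HORVU2Hr1G007080 lost its call without Karl replicate B or C or 10_11 replicate A or C, with edgeR adjusted p of 0.0584 to 0.0799, and its log2 fold change was -6.47 without 10_11 replicate A. With the doubtful 14 d library left out, the 21 d difference of HORVU2Hr1G007080 had an edgeR adjusted p of 3.42e-07. Leaving out the library at 104 CPM had to lower the spread of this gene, so that p-value adds no support. HORVU6Hr1G018520, chosen after its values were seen for a call that held in every leave-one-out fit, had 14.9, 17.0 and 11.4 CPM in 10_11, against 137, 135 and 103 CPM in Karl at 21 d (log2 fold change -3.12, SE 0.45, edgeR adjusted p = 0.00229).

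For 51 of the 101 genes neither earlier day had an unadjusted p under 0.05 while a test of the difference between days did, at 21 d against 14 d or against 7 d. Since those tests use the 21 d libraries that chose the genes, they describe the genes and add no support, and 10% of all tested genes met the same condition. Set against 14 d, the line difference at 21 d had changed for 0 genes past adjustment over all genes by edgeR (0% of those tested), for 1081 at an unadjusted p under 0.05 (10.8%) and for 60 by DESeq2. Set against 7 d, it had changed for 0 genes past adjustment by edgeR (0%), for 772 at an unadjusted p under 0.05 (7.74%) and for 30 by DESeq2. The edgeR count against 14 d was 9 when the doubtful 14 d library was left out, 2 without Karl 14 d replicate B and 1 without Karl 21 d replicate A. The count against 7 d was 1 without 10_11 14 d replicate A. A line difference that changed with age is therefore not shown by edgeR for any single one of these genes in the fit to all 18 libraries. Of the 51 genes 36 were higher and 15 lower in 10_11, 10 differed at least 4-fold, the median size of the log2 fold change was 1.34, and the median level was 56.2 CPM.

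Among these genes HORVU6Hr1G074690 had the largest fold on the higher side, with 236, 266 and 66.8 CPM in 10_11, against 25.0, 2.16 and 2.22 CPM in Karl (log2 fold change 4.38, SE 0.76, edgeR adjusted p = 0.00934). At 7 d it had 8.07, 1.27 and 13.7 CPM in 10_11 replicates 1, 2 and 3, against 2.71, 0 and 0 CPM in Karl, from at most 4 counts a library. At 14 d it had 9.64, 4.86 and 0.787 CPM in 10_11, the last in the doubtful library, against 1.35 to 3.72 CPM in Karl. A difference in the same direction before 21 d is therefore not excluded for this gene. 10_11 replicate C and Karl replicate A lay closest together at 21 d. The log2 fold change of HORVU6Hr1G074690 was 6.38 without Karl replicate A, and 3.82 without Karl replicate B, where the edgeR adjusted p was 0.0697. HORVU5Hr1G044610 had 69.4, 60.7 and 27.1 CPM in 10_11, against 11.3, 8.98 and 5.54 CPM in Karl at 21 d (log2 fold change 2.59, SE 0.47, edgeR adjusted p = 0.0115). At 14 d it had 1.81, 2.70 and 5.11 CPM in 10_11, against 8.83, 1.80 and 3.23 CPM in Karl. Its edgeR adjusted p was 0.0770 without Karl replicate B and 0.0584 without Karl replicate C.

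Of the 51 genes 2 kept their calls in every leave-one-out fit, and they are named after their values were seen. HORVU5Hr1G068520 had 2593, 2466 and 2289 CPM in 10_11, against 1087, 804 and 1057 CPM in Karl at 21 d (log2 fold change 1.32, SE 0.20, edgeR adjusted p = 0.00297), where the means at 7 d had been 714 CPM in 10_11 and 736 CPM in Karl. HORVU3Hr1G071870 had 343, 330.0 and 296 CPM in 10_11, against 143, 116 and 134 CPM in Karl (log2 fold change 1.31, SE 0.18, edgeR adjusted p = 0.00133). Its means at 14 d were 146 CPM in 10_11 and 129 CPM in Karl. On the lower side, HORVU1Hr1G089380 had 4.39, 1.62 and 0.602 CPM in 10_11, against 15.0, 19.8 and 34.9 CPM in Karl at 21 d (log2 fold change -3.47, SE 0.65, edgeR adjusted p = 0.0139). Its 10_11 values came from 5, 2 and 1 counts, so the size of its fold change rests on few reads. At 14 d it had 28.9, 36.7 and 45.6 CPM in 10_11, against 10.7, 37.0 and 29.1 CPM in Karl. Its edgeR adjusted p was 0.0540 without Karl replicate B, 0.0510 without Karl replicate C and 0.0572 without 10_11 replicate C, and its log2 fold change was -4.37 without 10_11 replicate A.

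**Figure D3:**
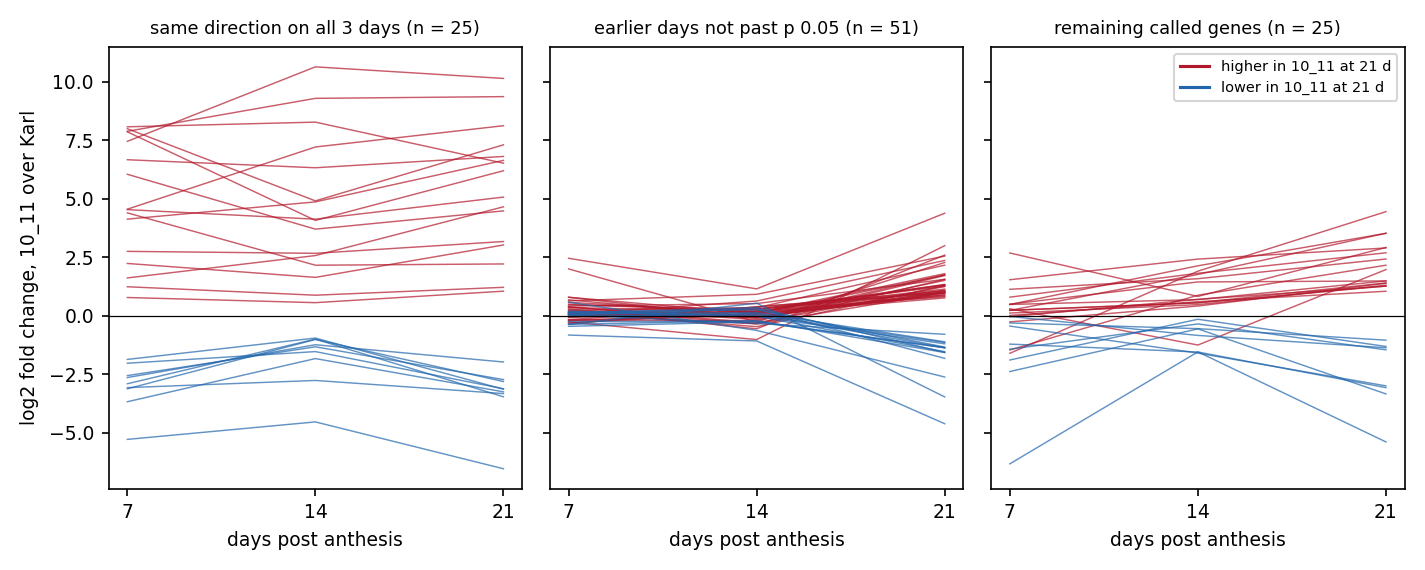
Log2 fold change of 10_11 over Karl at 7, 14 and 21 d for each of the 101 genes called at 21 d, as 1 line a gene, red where 10_11 was higher and blue where it was lower at 21 d. The 25 genes on the left differ in the same direction on all 3 days. The 51 in the middle had no unadjusted edgeR p under 0.05 at 7 d or 14 d but had one for a difference between days. The 25 on the right are the remaining ones, and some of these also had no such p at 7 d or 14 d. The groups were formed with these values, and the doubtful 14 d library is among the 14 d values.

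The remaining 25 genes met neither condition. 17 of them had an unadjusted p under 0.05 at 14 d with the direction of 21 d and 1 with the opposite direction. At 7 d, 4 had one with the direction of 21 d. Among all tested genes 13.5% had such a p at 14 d and 4.35% at 7 d, in either direction. The group was formed with these same p-values, so its counts describe it and add no support. The abundant pair on chromosome 3 belongs here.

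The called genes were spread over all 7 chromosomes, with the largest share on chromosome 6. There 26 of 1149 tested genes were called (2.26%), 15 higher and 11 lower in 10_11. The shares were 1.24% on chromosome 1, 1.09% on chromosome 2, 0.857% on chromosome 3, 0.767% on chromosome 4, 0.568% on chromosome 5 and 0.563% on chromosome 7, and 3 of 237 unplaced genes were called (1.27%). Of the 25 genes that differed on all 3 days 14 were on chromosome 6, which is 56%. Of the 51 with a difference between days but no earlier day past the unadjusted threshold, 8 were on it, which is 15.7%. Missing that threshold does not show that the lines were alike on the earlier days. Chromosome 6 held 11.5% of all tested genes. On chromosome 1, 15 of the 16 called genes were higher in 10_11. Genes are not independent of each other along a chromosome and these counts carry no test.

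**Figure D4:**
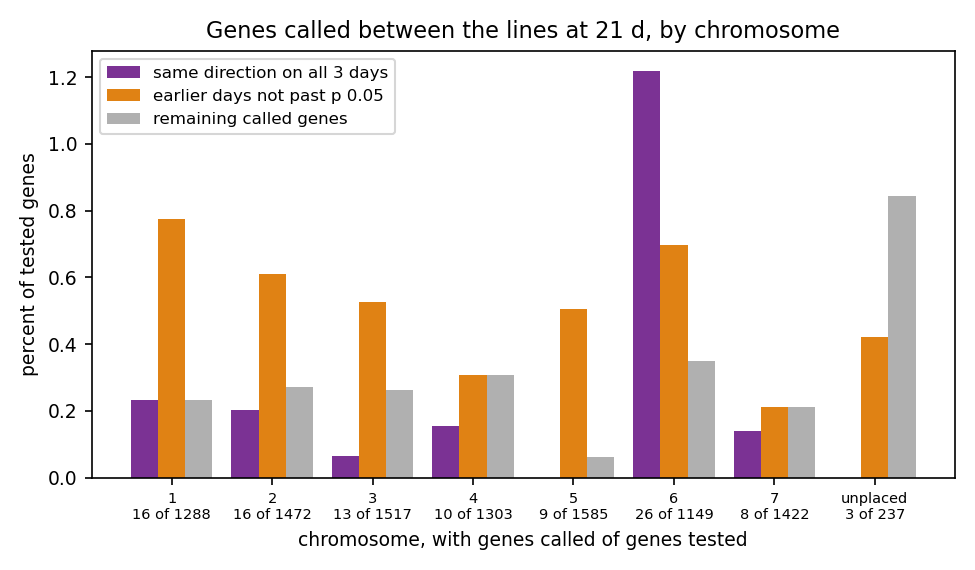
Genes called between the lines at 21 d as a percent of the genes tested on each chromosome. Purple bars are those that differed in the same direction on all 3 days. Orange bars are those whose earlier days were not past an unadjusted edgeR p of 0.05 while a difference between days was. Grey bars are the remaining called genes. The counts under the axis give genes called of genes tested. Chromosome 6 has the tallest purple bar, 14 of 1149 genes.

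Along chromosome 6, cut into 10 stretches of 114 or 115 tested genes by the order of the identifiers, called genes were found in 8. The sixth stretch, from HORVU6Hr1G055750 to HORVU6Hr1G064320, held 6 of 115 (5.22%), and the eighth, from HORVU6Hr1G072230 to HORVU6Hr1G079030, held 5 (4.35%). Elsewhere only the first stretch of chromosome 2, up to HORVU2Hr1G017450, passed 4%, with 6 of 147 tested genes (4.08%). Called genes at most 5 tested genes apart formed 11 runs that held 25 of the 101 genes. In 5 runs every gene had the same direction and in 6 both directions occurred. An example of the first is HORVU1Hr1G018350, HORVU1Hr1G018360 and HORVU1Hr1G018480, all higher in 10_11. An example of the second is HORVU6Hr1G057380, which was at 0 counts in Karl, with HORVU6Hr1G057110, which was lower in 10_11 at 2.64, 1.62 and 3.61 CPM, against 23.1, 16.9 and 18.8 CPM in Karl.

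Some large differences were not called. 29 genes with a mean of at least 10 CPM differed at least 4-fold without passing the adjusted threshold. In 12 of them the libraries did not overlap, where 18.6% of all tested genes showed no overlap. HORVU6Hr1G071030 had 0 counts in every 10_11 library at 21 d, against 80.7, 61.4 and 89.2 CPM in Karl, with an edgeR adjusted p of 0.0614. Its 10_11 libraries had 0, 0 and 73.2 CPM at 14 d, the last in the one labelled replicate C, and the edgeR adjusted p at 21 d was 4.95e-07 with that library left out. HORVU6Hr1G071030 is among the genes that marked that library as doubtful, so this lower p adds no support. Of the 29 genes, 7 were called without that library, where 1.42% of the genes then tested were called. Choosing genes for a 4-fold difference favours both counts, so they describe the 29 genes only.

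The called genes were also set against the change from 7 d to 14 d. Of the 69 genes higher in 10_11 at 21 d, 3 had risen and 3 had fallen in Karl from 7 d to 14 d, a contrast with no 21 d library, in which 5.59% of all tested genes rose and 5.05% fell (edgeR adjusted p under 0.05). Of the 32 lower genes 0 had risen and 4 had fallen. In 10_11, where 1.16% of tested genes rose and 1.26% fell from 7 d to 14 d, 1 of the 69 rose and 0 fell, and 1 of the 32 rose and 1 fell.

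An age score asked whether 1 line had moved further at 21 d along the change from 7 d to 14 d. It subtracts, for each library, the mean log2 CPM of the 504 genes that fell in Karl between 7 d and 14 d from that of the 557 that rose. That contrast uses no 21 d library, though the 21 d libraries entered the fit and so its estimate of spread. The score was -0.08, 0.65 and 0.10 in 10_11 replicates A, B and C at 21 d, against 0.38, 0.28 and -0.12 in Karl replicates A, B and C. The lines overlapped, and 10_11 replicate B was the highest of the 6. The means were 0.22 ± 0.38 in 10_11 and 0.18 ± 0.27 in Karl (SD, n = 3 each). They differed by 0.04, less than the spread within a line (p = 0.9 in a two-sided exact permutation test, where 20 splits allow no p under 0.1). The difference was -0.21 without 10_11 replicate B and -0.15 without Karl replicate C, so its sign rests on single libraries. The genes of the score changed in these fits as well. They were 690 that rose and 617 that fell without 10_11 replicate B, and 548 and 484 without Karl replicate C. At 14 d, the means had been -1.32 ± 0.53 in 10_11 and -0.08 ± 0.32 in Karl (SD, n = 3 each), where Karl libraries also chose the genes. The 10_11 values take in the doubtful 14 d library, at -0.71, while replicates A and B had -1.68 and -1.55. At 7 d the means were -3.01 ± 0.07 in 10_11 and -3.30 ± 0.03 in Karl (SD, n = 3 each). Within Karl, the libraries of 14 d, at -0.45 to 0.14, overlapped those of 21 d. The score thus did not separate these 2 ages in the line that chose its genes. A small line difference at 21 d therefore does not show that the lines were equally far along. With the 242 genes called in 10_11 from 7 d to 14 d instead, the difference at 21 d was 0.40 and every 10_11 library lay above every Karl library (exact permutation p = 0.1, the smallest the 20 splits allow). It was 0.50, also at an exact permutation p of 0.1, when those genes were called without the doubtful 14 d library. Whether the lines overlapped in the score therefore depended on the line that chose its genes. With 3 libraries a line, the smallest p the test allows is above 0.05 whatever the difference.

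**Figure D5:**
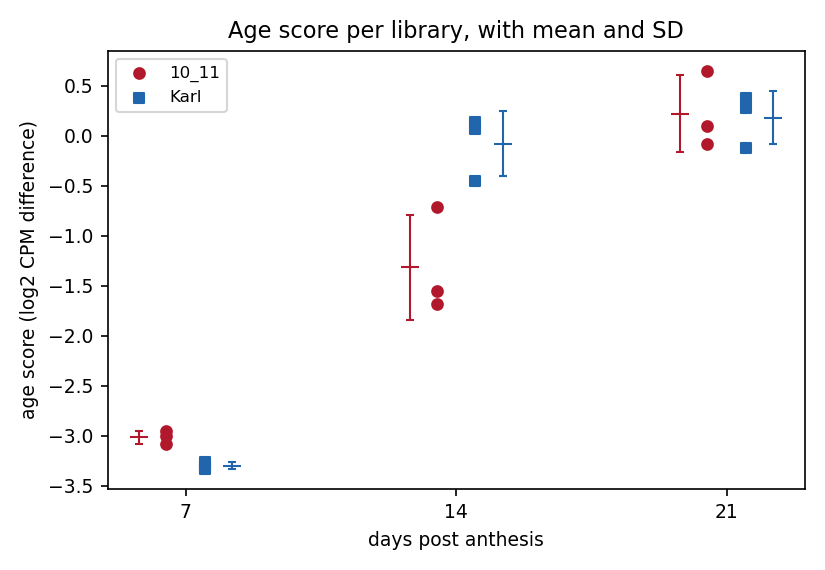
Age score of each library (log2 CPM difference) against days post anthesis, with 10_11 (red circles) left of Karl (blue squares) and bars for the mean and SD of 3 libraries. At 21 d the lines overlap, with 10_11 between -0.08 and 0.65 and Karl between -0.12 and 0.38. The genes of the score come from the contrast of Karl at 14 d with Karl at 7 d, in the fit to all libraries.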

How the data were processed

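RNA of pooled flag leaves was made into MARS-seq libraries and sequenced on a NextSeq, per the labels' protocols. The submitters' processing notes name bcl2fastq, cutadapt, STAR 2.4.2a, HTSeq and DESeq2. A genome build, an annotation and the use of molecular identifiers are not stated there, so floors cover counting error only. The authors' deposited table gives whole-number counts for each gene and library, which were the values tested. Per the file headers it also gives normalized counts (a scaled signal, not tested here), regularized log2 values (not tested), and, for pairs of groups, log2 fold changes with raw and adjusted p-values. Its fold change for this pair runs Karl over 10_11, so its sign was turned to count directions.

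edgeR 4.0.16 in R 4.3.3 (filterByExpr by group, TMM, glmQLFit and glmQLFTest, two-sided) was fitted once to all 18 libraries, with a mean per line and day and 12 residual degrees of freedom. A gene is called when its p, adjusted by Benjamini-Hochberg, is under 0.05. The SE of a log2 fold change is its size over the square root of F. The test was checked on simulated data. The score uses a prior count of 2. For a fold against 0 counts the group was set to 3 counts in total. The 12 genes named by rule came from 77 called genes with at least 20 CPM in the higher line and no overlap. They were the first 2 in each direction by fold and the 2 most abundant in each direction. The ranking by fold was made among all 77 and among those that differed on all 3 days. It was also made among those with a difference between days but no earlier day past the unadjusted threshold. Other genes are examples chosen after their values were seen. The comparison, the lists and the rule were chosen with earlier results of these data known. The alternatives were DESeq2 1.42.0, limma-voom (limma 3.58.1), DESeq2's size factors, no filter, fewer libraries, thinned counts, leaving out 1 library at a time and a term for the replicate letter.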

Additional observations from a re-analysis of the deposited data

How the results depend on the processing

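The count of 101 genes was 307 with DESeq2, 44 with the 6 libraries of 21 d alone, 46 without the 7 d libraries, and 13 to 258 when each of the 18 libraries was left out in turn. With limma-voom, DESeq2's size factors, no filter and 21 d libraries thinned to 1058777 counts it stayed within 1.5 times of 101. The genes themselves changed more. Of the 101, limma-voom kept 78, DESeq2's size factors 98, no filter 91 and thinned counts 71. DESeq2 kept 100, the 6 libraries of 21 d alone 35 and the fit without the 7 d libraries 43. With DESeq2 the line difference at 21 d had changed for 60 genes against 14 d and for 30 against 7 d. Leaving out a library gave 0 to 9 genes against 14 d and 0 to 1 against 7 d. The age score difference was -0.21 to 0.20 when each Karl library and each 10_11 library of 21 d was left out in turn. It was -0.15 without Karl 21 d replicate C. The 10_11 libraries of 7 d and 14 d were not left out for this score. The difference was 0.40 with genes called in 10_11. It was 0.50 with genes called in 10_11 after the doubtful 14 d library was left out, an alternative added after the data were seen. The fold changes of the 12 named genes kept their sign in all 324 refits and their call in 282. DESeq2 called all 12, limma-voom 8, the 6 libraries of 21 d alone 8, and the fit without the 7 d libraries 7. The cause of these changes was not tested. Same-letter libraries of the lines at 21 d had correlations of their deviations of -0.16, 0.31 and 0.33 for A, B and C. Unlike-letter libraries had -0.44 to 0.28. The values of B and C were thus above every unlike-letter value and that of A was not. The letters are not shown to pair samples, and pairing is not excluded. With a replicate block 92 genes were called in the fit to 18 libraries and 46 in the 6 of 21 d alone. The block leaves the score difference at 0.04 by construction, which says nothing of its stability.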
